A study of Mus musculus with 8 samples.

Results

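Among the Paneth cells of the small intestinal crypt, 2472 of 4944 were rich in transcripts of Defa21, Defa22, Gm15308 and Gm21002 relative to 4 other genes, and they are described here as Defa21-high cells. A Paneth cell was a barcode with at least 1500 UMIs (unique molecular identifiers, counted transcripts), at least 200 genes, at most 30% mitochondrial UMIs and at least 20% of UMIs from genes whose symbol starts with Defa. In each such cell f was the UMI sum of those 4 genes as a percentage of the sum over 8 genes, the other 4 being Clps, Gm14851, Defa23 and AY761184. Cells at or above the pooled median f of 63.6% were Defa21-high, and the remaining 2472 were Defa21-low. Since the cells were chosen by the UMIs of these 8 genes, their levels are a description and no finding. The 4 genes gave 29.0% of all defensin-list UMIs in Defa21-high and 11.6% in Defa21-low cells of WT, and 29.4% and 14.05% in the KO, so other defensins supplied most defensin UMIs in every set.

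The cells came from EpCAM+ crypt epithelium of adult mice on a C57BL/6 background, given by the study as 10-week-old females. EpCAM is an epithelial surface protein, and the sorted cells were run on a droplet platform that reads transcript 3′ ends. The group labelled KO was homozygous for a CRISPR deletion of ieCtnnb1, an intestinal enhancer upstream of Ctnnb1, the gene of β-catenin. The group labelled WT were controls with, per the study, a transgene inserted at H11 in which the enhancer core and a Shh promoter drive LacZ and iCre, and thus not animals without a transgene. The labels list 4 samples per group, the study's legends differ on the number of animals pooled, and the values came as 1 matrix per group with no key from cells to samples. Each group was therefore 1 sample, no test between groups or cell sets was possible, and all intervals are 95% intervals that cover counting error only.

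Paneth cells sit at the crypt base between the stem cells and store antimicrobial peptides in secretory granules. Their alpha-defensins, called cryptdins in mouse, are encoded by a family of similar genes arranged in a cluster, and lysozyme, lectins and secreted enzymes are packed alongside them. Wnt signalling through β-catenin and TCF factors drives Paneth cell maturation, and Paneth cells themselves produce Wnt3 and other signals for the stem cells.

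All 28 genes of the defensin list lie on mouse chromosome 8 between positions 20943694 and 21735471 (GRCm38, GENCODE M21), 22 on the plus and 6 on the minus strand. Defa21 (21025545 to 21026516), Defa22 (21162277 to 21163249), Gm21002 (21391811 to 21392791) and Gm15308 (21529032 to 21530012) are all on the plus strand, and other defensin genes lie between them. Gm14851 (21095074 to 21096050) and AY761184 (21702519 to 21703645) are on the minus strand, whereas Clps, which encodes the pancreatic lipase cofactor colipase, is on chromosome 17 (28558149 to 28560766, minus strand). Neither set of 4 genes is therefore a contiguous block. The longest annotated transcripts of Defa21 and Defa22 were 99.5% identical, and those of Gm15308, Gm21002 and Defa20 were 99.5% to 99.8% identical to each other. Across these families identity was lower, 91.6% for Defa21 and Gm15308 and 85.8% for Defa21 and Defa23. Counts of single members within a family are uncertain, because a short 3′ read can fit several copies.

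RefSeq promoters, 250 bases before to 50 after the transcription start (GRCm38.p6), were found for 5 of the 8 genes, with Gm15308 listed there as Defa32 and Gm14851 as Defa38. Defa22 has the same 300 bases as Defa21, and the Defa20 promoter is identical to that of Gm15308 over 298 aligned bases. The following 4 are printed because they set the genes of the Defa21-high cells beside those of the Defa21-low cells. Capitals mark TATAAA and ATCAAAG, the latter the kind of site bound by TCF factors, searched on both strands.
Defa21, chr8:21025295-21025594, plus strand: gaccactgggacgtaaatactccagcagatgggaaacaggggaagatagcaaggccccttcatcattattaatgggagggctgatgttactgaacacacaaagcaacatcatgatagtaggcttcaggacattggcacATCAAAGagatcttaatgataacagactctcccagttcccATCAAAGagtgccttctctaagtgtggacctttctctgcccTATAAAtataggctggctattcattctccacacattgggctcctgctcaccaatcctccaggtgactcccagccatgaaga
Gm15308, chr8:21528780-21529079, plus strand: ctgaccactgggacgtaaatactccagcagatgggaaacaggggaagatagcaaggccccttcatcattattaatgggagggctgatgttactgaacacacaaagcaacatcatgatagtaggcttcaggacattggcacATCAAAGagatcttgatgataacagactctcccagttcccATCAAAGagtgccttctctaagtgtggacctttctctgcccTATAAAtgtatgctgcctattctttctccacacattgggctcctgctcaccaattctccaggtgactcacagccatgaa
Defa23, chr8:21054790-21055089, plus strand: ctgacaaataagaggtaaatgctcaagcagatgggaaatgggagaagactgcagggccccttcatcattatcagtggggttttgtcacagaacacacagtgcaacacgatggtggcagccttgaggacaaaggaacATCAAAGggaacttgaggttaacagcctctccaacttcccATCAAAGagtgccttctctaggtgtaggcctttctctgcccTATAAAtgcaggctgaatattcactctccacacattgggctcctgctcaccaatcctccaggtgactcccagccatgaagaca
Gm14851, chr8:21096001-21096300, minus strand: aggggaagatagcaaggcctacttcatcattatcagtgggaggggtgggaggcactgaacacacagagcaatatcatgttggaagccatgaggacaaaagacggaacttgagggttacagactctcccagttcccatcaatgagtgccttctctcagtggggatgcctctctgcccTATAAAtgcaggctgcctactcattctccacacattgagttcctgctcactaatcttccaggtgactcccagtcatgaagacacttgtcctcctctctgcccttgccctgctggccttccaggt
Each of the 4 held 1 TATAAA, which 13.6% of 32544 distinct promoters of this length also held. Defa21, Gm15308 and Defa23 each held 2 matches to ATCAAAG, starting 112 and 72, 110 and 70, and 114 and 74 bases before the transcription start. The Gm14851 window held none of these letters. Among all promoters 3.73% held at least 1 ATCAAAG and 0.0922% held 2 or more. The matches thus occurred on both sides of the split, in Defa21 and Gm15308 as well as in Defa23, and the aligned Defa21 and Defa23 promoters were 83.8% identical.

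The WT matrix held 134876816 UMIs and gave 10588 barcodes passing the limits on UMIs, genes and mitochondrial share, of which 3741 were Paneth cells and 1896 Defa21-high. The KO matrix held 123794575 UMIs and gave 5881, of which 1203 were Paneth cells and 576 Defa21-high. Median depth in Defa21-high cells was 24184 UMIs in WT and 43696 in the KO, so the KO values rest on fewer but deeper cells. The Defa21-low cells had medians of 19637 and 41536 UMIs. Cells under 5000 UMIs were 16.2% of Defa21-high and 7.80% of Defa21-low cells in WT, and 18.2% and 11.8% in the KO matrix. Of the 57 barcode sequences that the matrices share, 12 belonged to Defa21-high cells of WT and 2 to those of KO. No doublets were removed here, and the alternatives without the deepest cells stand with the limits at the end.

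The Paneth label was checked by Lyz1, since most UMIs of the other Paneth markers come from Defa genes that the rule used. The 10 Paneth markers present in the matrices, those Defa genes included, made up 47.2% of UMIs in WT and 45.5% in the KO, which the rule largely fixes. Lyz1, the Paneth lysozyme, stood at 44378 CPM (UMIs of the gene per 1000000 UMIs of the summed cells) in WT and 42674 in the KO. Every Defa21-high cell held at least 1 UMI of Lyz1, which free RNA could also give, so this count does not check the label. Over single cells the lower quartile of Lyz1 was 30237 CPM in WT and 28762 in the KO. Markers of other cells took smaller shares of UMIs than the Paneth markers. The 6 goblet markers summed to 1.49% and 1.04% of UMIs, led by Spink4, which Paneth cells also make, and the 7 enterocyte markers to 0.0623% and 0.144%. Cycling markers summed to 219 CPM in WT and 226 in the KO, stem markers to 124 and 93.4, and enteroendocrine markers to 68.1 and 54.4. Erythroid markers were at 0, and stromal, endothelial and immune markers summed to under 1 CPM each. Free RNA was gauged in 128 WT and 97 KO barcodes with at least 5 tuft-marker UMIs and under 20% Defa, called tuft barcodes here, with median depths of 6775 and 13440 UMIs. These barcodes also hold transcripts of their own cells, so a level in them is not free RNA alone. Their Lyz1 level was 3979 CPM in WT and 3127 in the KO, well under that of the Paneth cells. Goblet markers summed to 13765 and 5859 CPM in them, against 14913 and 10391 in the Defa21-high cells.

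Ctnnb1, the gene next to the deleted enhancer, was lower in the KO. In Defa21-high cells its level was 56.5 CPM in WT and 35.3 in the KO, a log2 ratio of -0.68 (-0.80 to -0.56). In Defa21-low cells the levels were 56.6 and 39.0, a log2 ratio of -0.54 (-0.65 to -0.43). The tuft barcodes, which are few and not Paneth cells by the rule, also differed, with 223 and 142 CPM and a log2 ratio of -0.65. Between Defa21-high and Defa21-low cells the log2 ratio was -0.00 (-0.09 to 0.08) in WT and -0.14 (-0.28 to -0.00) in the KO.

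The values of f were spread widely, with cells crowded at either end. In WT 15.7% of Paneth cells had f between 75% and 80%, and a smaller peak of 7.89% lay between 15% and 20%. In KO the upper peak lay between 65% and 70%, with 15.5% of cells, and the lower between 5% and 10%, with 5.74%. The upper peak was thus lower in f in the KO. The counting SD of f in a single cell had a median of 0.645 points in WT and 0.432 in the KO, against a spread over cells (SD) of 24.1 and 22.5 points. The cells nearest the limit had f of 63.62% inside and 63.60% outside, and 797 cells (16.1%) lay within 5 points of it, so the limit runs through a continuum of cells.

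**Figure D1:**
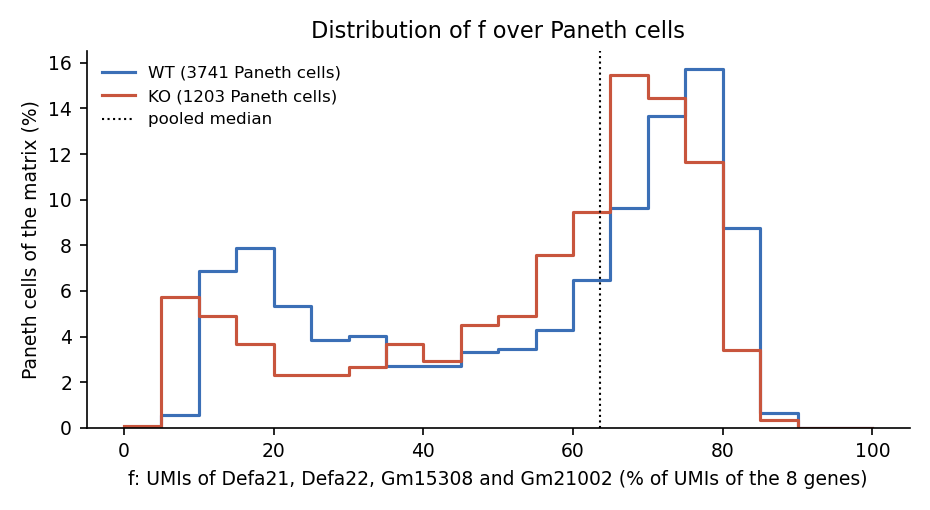
Distribution of f, the UMIs of Defa21, Defa22, Gm15308 and Gm21002 as a percentage of the UMIs of the 8 genes, in bins of 5 points, for the 3741 WT and 1203 KO Paneth cells; the vertical axis is the percentage of Paneth cells of each matrix and the dotted line the pooled median. Both matrices have many cells above 60% and a smaller group below 25%, and the upper peak of the KO lies at lower f than that of WT.

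Defa21-high cells were a smaller share of kept cells in the KO, and so were Paneth cells of either kind. They made up 17.9% (17.2% to 18.7%, Clopper-Pearson) of kept WT cells and 9.79% (9.05% to 10.6%) of kept KO cells, a log2 ratio of -0.87 (-1.01 to -0.74). All Paneth cells were 35.3% of kept cells in WT and 20.5% in the KO, a log2 ratio of -0.79. Within the Paneth cells the Defa21-high share was 50.7% in WT and 47.9% in the KO, and the log2 ratio of -0.08 (-0.22 to 0.05) did not clear counting error. At other limits of f the matrices separated in 2 of 3 cases. Cells with f of at least 75% were 25.2% of WT and 15.4% of KO Paneth cells, a log2 ratio of -0.71 (-0.95 to -0.48). Cells with f under 40% were also a smaller share in the KO, 25.4% against 31.3% in WT, a log2 ratio of -0.30 (-0.49 to -0.12). Cells with f under 20% were 15.3% and 14.4% of WT and KO, and the log2 ratio of -0.09 (-0.35 to 0.15) did not clear counting error. The matrices differ in depth and come from separate sorts. Summed over the tuft barcodes f was also lower in the KO, 43.0% against 66.0% in WT. The part of these in the shares was not tested.

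The 4 defining genes were high in every Defa21-high cell set and in similar amounts in both matrices, which the shared limits on f and Defa share partly set. Defa21 stood at 75379 CPM in WT and 73718 in the KO, against 31463 and 37579 in Defa21-low cells. Gm15308 stood at 40833 and 45115, against 10572 and 13550.0. Gm15308 thus had the wider contrast of the pair, with log2 ratios of 1.95 in WT and 1.74 in the KO against 1.26 and 0.97 for Defa21. Defa22 (63148 and 62212 CPM) followed Defa21, and Gm21002 (14386 and 13275) had log2 ratios of 1.26 and 1.04. The tuft barcodes held 4218 and 2362 CPM of Defa21 and 2433 and 1336 of Gm15308, a background that free RNA can give. Over single WT cells Defa21 had quartiles of 54467 and 85575 CPM, and over KO cells of 49770.5 and 82219, so the matrices overlapped widely.

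The genes used for the other side of f did not vanish from the Defa21-high cells. AY761184 still stood at 34458 CPM in WT and 35486 in the KO, against 69751 and 77381 in Defa21-low cells. Gm14851 stood at 27121 and 33341, against 39716 and 45834. Clps stood at 2848 and 2930.1, against 4773 and 4384. These contrasts were shallower than that of Gm15308. Over 10 bins of equal cell number along f, Gm15308 went from 3587 to 50326 CPM in WT and from 2862 to 57781 in the KO, while AY761184 went from 87035 to 22184 and from 100642 to 19799. Lyz1 stayed between 38509.5 and 48657 CPM along the WT bins.

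**Figure D2:**
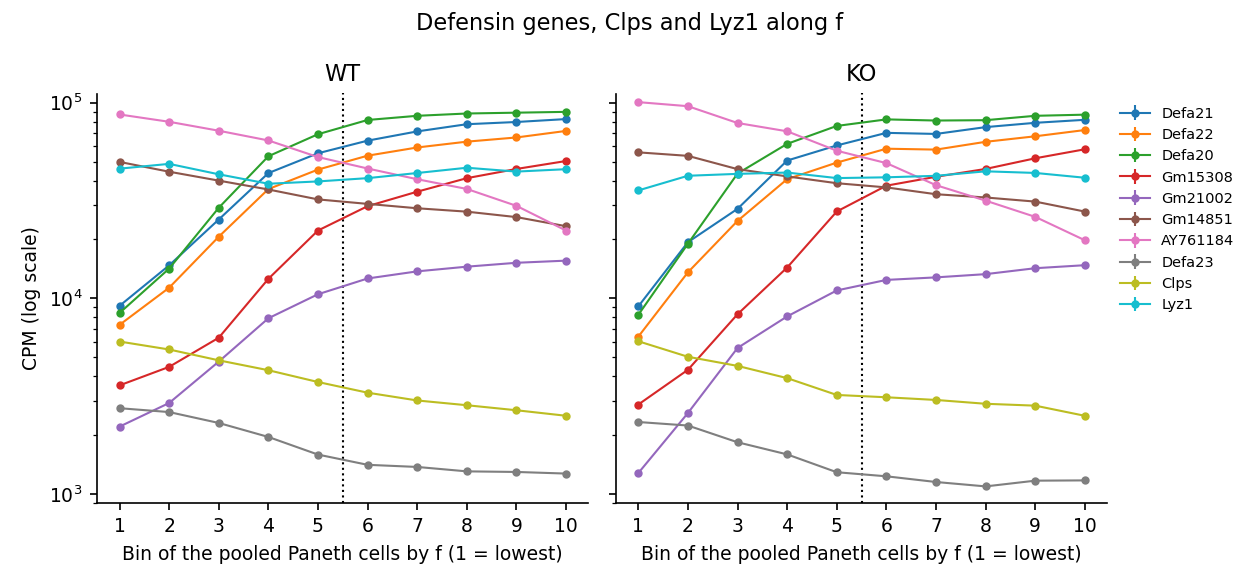
CPM on a log scale of 8 defensin genes, Clps and Lyz1 in 10 bins of the pooled Paneth cells by f (1 is lowest), for WT on the left and KO on the right; bars are counting intervals and the dotted line separates Defa21-low from Defa21-high cells. Defa21, Defa22, Defa20, Gm15308 and Gm21002 climb steeply over the lower bins and more slowly over the upper ones, whereas AY761184 and Gm14851 decline throughout and Lyz1 is nearly flat.

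Within the Defa21-high cells the near-identical copies moved together from cell to cell. Spearman's rho over cells was 0.85 in WT and 0.87 in KO for Defa21 with Defa22, and 0.53 and 0.70 for Defa21 with Gm15308. Defa21 and Lyz1 had a rho of 0.17 and 0.18. These describe 1896 and 576 cells that share a library, a denominator and, for the copies, sequence.

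The defensins that f leaves out went in either direction, some with and some against the copies they resemble. Families were joined at 95% identity over 95% of the shorter transcript, and their summed UMIs do not depend on which copy of a family a counted read was given to. Whether reads that fit several copies were counted at all was not checked. The family of Gm15308, Gm21002 and Defa20 took 14.2% of UMIs in Defa21-high and 5.38% in Defa21-low cells of WT, and 14.1% and 6.67% in the KO, sums that hold genes of f and so partly restate the choice of cells. Defa20, which f leaves out, though its Defa symbol counts towards the 20% limit and its sequence is close to that of genes in f, stood at 86945 against 37232 CPM in WT and 82923 against 46755 in the KO. The family of Defa24, Gm15284, Defa17, Defa23 and Defa3 went the other way, at 25.3% against 35.1% in WT and 24.0% against 29.8% in the KO. That family holds Defa23, a gene of f. Its abundant members, Defa24 and Gm15284, had log2 ratios of -0.43 and -0.54 in WT and -0.29 and -0.34 in the KO.

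The remaining families differed less as sums. Defa5, Gm10104, Gm14850, Gm15293 and Gm15315 together took 4.02% against 3.70% in WT and 3.86% against 3.47% in the KO. Yet Gm10104 alone had log2 ratios of 1.04 and 0.95, Gm15315 of 0.83 and 0.72, Gm15293 of 0.56 and 0.46 and Defa5 of 0.54 and 0.43, all higher in Defa21-high cells. Gm14850, the most abundant of the 5, had -0.02 and 0.05 and holds the sum near its level. Defa26 and Gm15292 were lower together, 0.335% against 0.461% and 0.289% against 0.371%. Gm7861, whose transcript resembles those of AY761184 and Gm14851, had log2 ratios of -0.02 and -0.04, whereas those 2 genes of the rule were lower. Of 23 defensin genes tested, the 7 of the rule included, 10 had log2 ratios above 0 in WT and 11 in the KO, and reads shared between copies make the single ratios uncertain.

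Outside the defensins very few genes separated the Defa21-high from the Defa21-low cells. Genes with at least 50 UMIs were tested, and a gene was called past 2-fold when its log2 ratio reached 1 in size after 10 CPM were added to both sides. In both matrices and in the same direction, 3 of 9224 genes were called higher (0.0325%) and 2 lower (0.0217%). The 3 were Defa22, Gm15308 and Gm21002 and the 2 were AY761184 and Rnase1, so Rnase1 was the only call that the rule did not use. Each matrix alone gave a few more. In WT 9 of 10483 were called (0.0859%), 6 higher (0.0572%), among them Defa20 and Gm10104, and 3 lower (0.0286%), among them Klk1. In the KO matrix 6 of 9247 were called (0.0649%), 3 higher (0.0324%) and 3 lower (0.0324%), among them Gkn3. At a smaller step of 0.5 on the log2 scale 10 genes were higher (0.108%) and 8 lower (0.0867%) in both. No gene was called in opposite directions. The median log2 ratio of all tested genes was -0.02 in WT and -0.05 in the KO.

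Rnase1 (chromosome 14, 51144998 to 51146785, minus strand), which encodes the pancreatic-type secreted ribonuclease, was far lower in the Defa21-high cells. Its level was 48.1 CPM in Defa21-high and 392 in Defa21-low cells of WT, a log2 ratio of -3.03 (-3.10 to -2.96). In KO the levels were 28.9 and 253, a log2 ratio of -3.13 (-3.25 to -3.01). Along the bins of f it went down from 707 to 29.6 CPM in WT and from 638 to 20.3 in the KO, and the highest bin was the lowest in both. The tuft barcodes had 18.8 CPM in WT and 38.4 in the KO, so the Defa21-high level of the KO was below that of its tuft barcodes. Pancreatic acinar markers summed to about 10 CPM in each set (10.7 and 10.2 in WT, 9.96 and 10.1 in the KO).

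Other named genes were lower in the Defa21-high cells by smaller steps. Klk1, a tissue kallikrein protease, stood at 52.4 against 120.5 CPM in WT and 61.9 against 121 in the KO, with log2 ratios of -1.20 and -0.97. The tuft barcodes had 74.3 and 86.7 CPM of Klk1, above the Defa21-high level. Reg4, a secreted lectin of the Reg family, stood at 643 against 1169.5 and 458 against 659.7, with log2 ratios of -0.86 and -0.53. Spink4, a protease inhibitor also made by goblet cells, had log2 ratios of -0.52 and -0.46, and Guca2b, which encodes uroguanylin, of -0.56 and -0.37. The chemokine gene Ccl9 had -0.62 and -0.62. Clca3b, Ifitm3, Prap1 and the ribosomal protein gene Rps19 closed the list of the 10 lowest, with log2 ratios from -0.39 to -0.31 in WT and from -0.45 to -0.39 in the KO. Goblet markers were lower too, 5 of 6 below 0 in each matrix with medians of -0.29 and -0.26. Among all tested genes 63.9% in WT and 75.1% in KO were below 0. Without defensins and Clps in the denominator 1 goblet marker in WT and 2 in the KO were above 0 (medians -0.19 and -0.13). The goblet markers summed to 1.49% against 2.04% of UMIs in WT and 1.04% against 1.36% in the KO. Spink4 is among them, and the part of goblet RNA in these ratios was not tested.

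A second group was higher in the Defa21-high cells. Guca2a, which encodes guanylin, the paralogue of uroguanylin, stood at 1119 against 820.5 CPM in WT and 884 against 628 in the KO, with log2 ratios of 0.45 and 0.49. The guanylin and uroguanylin genes thus went opposite ways across the Paneth cells in both matrices. Nupr1, a stress-linked nuclear protein, stood at 724 against 537 and 740.3 against 492, with log2 ratios of 0.43 and 0.59. Reg3g, an antibacterial lectin, stood at 1656 against 1087 and 2667 against 2014, with log2 ratios of 0.61 and 0.41. In the KO tuft barcodes Reg3g reached 2937 CPM, above both Paneth sets, and the part of free RNA in its KO level was not tested. Tspan1, a membrane tetraspanin, had log2 ratios of 0.45 and 0.42, and Ceacam10 of 0.62 and 0.32. Gm1123, Eif4ebp1, Oit1, Hpd and Smim14 made up the rest of the 10 highest, between 0.16 and 0.43 in WT and between 0.14 and 0.45 in the KO.

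**Figure D3:**
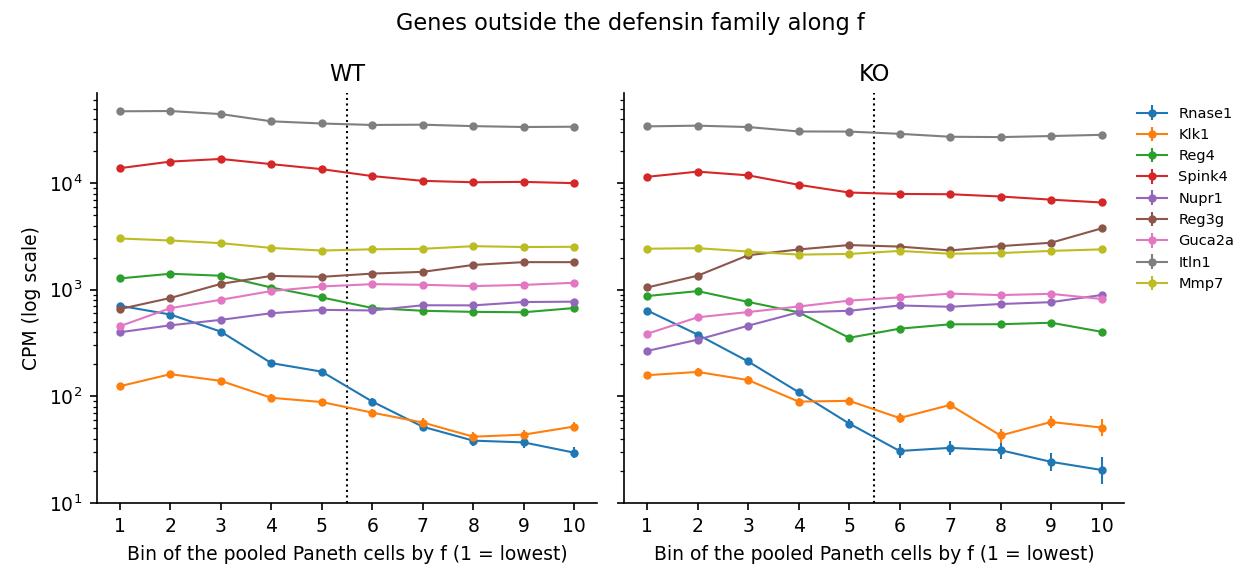
CPM on a log scale of 9 genes outside the defensin family in 10 bins of the pooled Paneth cells by f (1 is lowest), for WT on the left and KO on the right; bars are counting intervals and the dotted line separates Defa21-low from Defa21-high cells. Rnase1 goes down most steeply in both matrices, Klk1, Reg4 and Spink4 go up slightly over the first bins and are lower in the upper bins, Nupr1, Guca2a and Reg3g climb, and Mmp7 is nearly level.

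The classical Paneth products were shared by both kinds of cell. Of 22 tested non-defensin products in WT 9 had log2 ratios above 0 and 13 below, and of 21 in KO 8 above and 13 below, with none past 2-fold and a median of -0.04 in each matrix. These counts and medians include Clps, a gene of f, whose lower level in Defa21-high cells follows from the choice of cells. With defensins and Clps left out of the denominator the medians were 0.04 and 0.09, so the list's median has no firm sign. Lyz1 stood at 42888 and 41098 CPM in Defa21-low cells, with log2 ratios of 0.05 and 0.05. Mmp7, the protease that activates pro-cryptdins, had -0.10 and 0.00, and Ang4, an antimicrobial ribonuclease, -0.31 and -0.01. Itln1, the intelectin lectin, was lower in Defa21-high cells in both matrices, at 34443 against 42287 CPM in WT and 27916 against 32243 in the KO.

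Signals and regulators of the Paneth cell differed little across f. Wnt3 stood at 34.2 CPM in Defa21-high and 34.2 in Defa21-low cells of WT, and at 33.4 and 28.2 in the KO, with log2 ratios of -0.00 (-0.11 to 0.11) and 0.24 (0.09 to 0.39). The tuft barcodes had 3.14 and 3.26 CPM. Atoh1, the secretory master regulator, had log2 ratios of 0.17 and -0.03, and Spdef of -0.02 and 0.18. Sox9, a Wnt-responsive factor required for Paneth cells, was lower in the Defa21-high cells at 34.8 against 43.0 CPM in WT and 30.7 against 40.6 in the KO, with log2 ratios of -0.31 (-0.41 to -0.20) and -0.40 (-0.54 to -0.26). Over the Wnt target list 10 of 15 tested genes in WT and 14 of 14 in KO had log2 ratios below 0, with medians of -0.06 and -0.15 and none past 2-fold. Of all tested genes 63.9% in WT and 75.1% in KO were below 0 on this scale. Without defensins and Clps in the denominator 7 of the 15 Wnt targets in WT and 1 of the 14 in KO were above 0. Their medians were then -0.007 and -0.145, and 60.0% and 49.0% of all genes were above 0. Among 26 ER folding genes 21 were above 0 in WT (median 0.05) and 8 in KO (median -0.03). Without defensins and Clps in the denominator these counts were 24 and 23 (medians 0.16 and 0.09), against 60.0% and 49.0% of all genes.

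Among genes with regional expression along the gut, Hoxb genes stood higher and Onecut2, Gata4 and Gkn3 lower in the Defa21-high cells, while the medians of the lists were small, from -0.11 to 0.03. Hox genes are expressed by position along the body axis and gut, and Gata4 is a transcription factor of the proximal small intestine. Hoxb8 stood at 2.08 CPM in Defa21-high and 0.425 in Defa21-low cells of WT, and at 3.20 and 0.40 in the KO, with log2 ratios of 2.29 (1.51 to 3.16) and 3.0 (2.04 to 4.12). Hoxb7 stood at 2.54 and 0.584, and at 3.47 and 1.48, with log2 ratios of 2.12 (1.45 to 2.85) and 1.23 (0.65 to 1.84). These levels are low, from 10 to 105 UMIs per set for both genes, and the intervals lie clear of 0 in each matrix. With cells thinned to 1500 UMIs the WT log2 ratio was 0.39 for Hoxb8 and 0.56 for Hoxb7, so their size in WT depends on that setting. Hoxb6, the third Hoxb gene of the distal list, had log2 ratios of 1.11 (0.04 to 2.27) and 1.56 (0.33 to 2.95).

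The Hox family as a whole was looked at after these values were seen. Of its 39 genes in the matrices 7 had at least 50 UMIs over the 4 cell sets, namely Hoxb2, Hoxb4, Hoxb5, Hoxb6, Hoxb7, Hoxb8 and Hoxb9. Each of these had a log2 ratio above 0 in both matrices. Among all genes tested in both, 12.7% were higher in both, or 33.9% without defensins and Clps in the denominator. Those genes had at least 50 UMIs in each matrix, a stricter limit, while Hoxb2 had 15 and 5 UMIs in the 2 KO sets. Hoxb9 stood at 4.14 against 0.930 CPM in WT and 3.83 against 0.600 in the KO, with log2 ratios of 2.15 (1.62 to 2.72) and 2.67 (1.87 to 3.57). The interval of Hoxb5 included 0 in both matrices, with log2 ratios of 0.77 and 0.68. Along f Hoxb8 went from 0.166 CPM in the lowest to 4.46 in the highest bin of WT, and in KO it was at 0 in the lowest 2 bins and at 5.93 in the highest. Kept cells outside the Paneth set had 2.35 and 2.95 CPM of Hoxb8, and the tuft barcodes held 0 UMIs in WT and 8 in the KO, the latter 5.21 CPM. For Hoxb7 the tuft barcodes had 5.23 and 6.52 CPM and for Hoxb9 5.23 and 4.56, above the Defa21-high levels of both matrices, as were those of Hoxb4 and Hoxb5. The tuft barcodes may express these genes themselves, and the part of free RNA in the Hoxb levels was not tested.

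Onecut2, Gata4 and Gkn3 of the proximal list had ratios below 0. Onecut2, a transcription factor, stood at 10.4 against 20.4 CPM in WT and 4.51 against 11.9 in the KO, with log2 ratios of -0.98 (-1.15 to -0.81) and -1.40 (-1.75 to -1.07). Gata4 stood at 4.50 against 6.56 and 2.84 against 4.40, with log2 ratios of -0.54 (-0.83 to -0.26) and -0.63 (-1.10 to -0.17). Gkn3, a gastrokine gene of the proximal list, stood at 1.77 against 5.84 and 5.05 against 26.1, with log2 ratios of -1.73 (-2.13 to -1.34) and -2.37 (-2.67 to -2.08). The levels of all 3 in the tuft barcodes were higher than in the Defa21-high cells, at 154 and 76.9 for Onecut2, 35.6 and 19.6 for Gata4, and 15.7 and 44.3 for Gkn3. Those barcodes may express the genes themselves, and the part of free RNA was not tested.

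The lists as a whole differed less than these genes. Of 17 tested proximal genes in WT 14 were below 0 (median -0.11) and of 16 in KO 10 (median -0.05), with Gkn3 in KO the only call. These counts, 14 of 17 and 10 of 16, stand beside 63.9% and 75.1% of all tested genes. Without defensins and Clps in the denominator 4 proximal genes in WT and 10 in KO were above 0 (medians -0.05 and 0.03), so the direction in KO is set by the denominator. Of 11 tested distal genes in WT 6 were above 0 (median 0.03) and of 12 in KO 9 (median 0.02), with no call, beside 36.1% and 24.9% of all tested genes. The ileal bile acid genes of the distal list did not share the direction of the Hoxb genes. Fabp6, the ileal bile acid binding protein, had log2 ratios of -0.47 (-0.53 to -0.42) and 0.01 (-0.03 to 0.05), and Slc10a2, the bile acid uptake transporter, of -0.13 (-1.36 to 1.09) and 0.43 (-0.13 to 1.01). Pyy, a gut hormone gene, had log2 ratios of 1.99 (1.51 to 2.51) and 0.08 (-0.67 to 0.83), and only the WT interval lies clear of 0; the difference between matrices was not tested. The ratios of Gata6, a proximal list gene, did not clear counting error, with log2 ratios of 0.01 (-0.14 to 0.15) and 0.05 (-0.17 to 0.28).

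**Figure D4:**
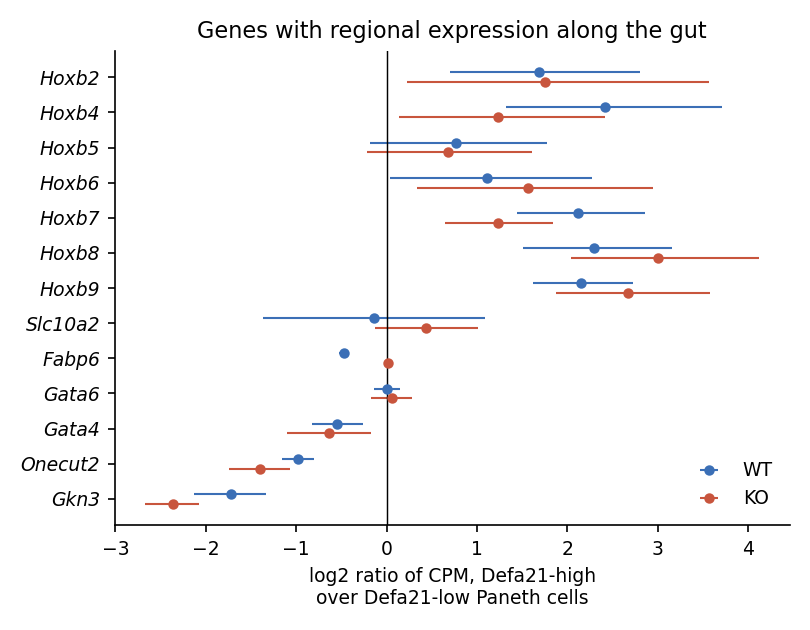
Log2 ratio of CPM in Defa21-high over Defa21-low Paneth cells for 13 genes with regional expression, in WT and KO; points are ratios of summed UMIs and bars are counting intervals. The 7 Hoxb genes lie above 0, Onecut2, Gata4 and Gkn3 lie below 0 in both matrices, and Gata6 and Slc10a2 straddle 0.

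Broad gene groups differed by small amounts that moved with the weight of the defensins in the denominator. Defensins and Clps took 67.0% of UMIs in Defa21-high and 64.3% in Defa21-low cells of WT, and 66.4% and 63.0% in the KO, which alone lowers the CPM of all other genes in the former by 0.11 and 0.14 on the log2 scale. All 86 tested ribosomal protein genes had log2 ratios below 0 in both matrices, with medians of -0.19 and -0.27. Without defensins and Clps in the denominator the medians were -0.08 and -0.14, with 5 genes above 0 in WT and 2 in the KO. Over all genes tested in both matrices, 12.7% were higher in both and 53.2% lower in both, against 33.9% and 24.8% with that denominator. Mitochondrial genes had medians of -0.13 and -0.15, immediate early and stress genes of -0.06 and -0.03, and antigen presentation genes of 0.04 and -0.01, with no call in any of them.

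Comparing KO with WT inside the Defa21-high cells asks how these cells differ between the deletion line and the controls with the transgene. Of 10041 genes tested 11 were called higher past 2-fold (0.11%) and 27 lower (0.269%), 0.378% in all, and the median log2 ratio was -0.05. Without defensins and Clps in the denominator 26 were called higher (0.259%) and 103 lower (1.03%), with a median of -0.11. In Defa21-low cells 13 of 10126 were called higher (0.128%) and 27 lower (0.267%), 0.395% in all. Of all tested genes 62.4% were below 0. None of the 23 tested defensin genes was called (7 above 0, 16 below, median -0.07). Defa21, Defa22, Gm15308 and Gm21002 had log2 ratios of -0.03, -0.02, 0.14 and -0.12. Cells of both matrices passed the same limits on f and Defa share, so these ratios are partly set by the rule. The tuft barcodes, which hold under 20% Defa UMIs, had -0.84 for Defa21 and -0.86 for Gm15308. As families, Defa21 with Defa22 had -0.03, Gm15308 with its copies -0.01 and the Defa24 family -0.08. Gm14851 stood higher, with a log2 ratio of 0.30 (0.29 to 0.30).

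Among genes that Paneth cells express at least 2 times above other cells, the KO differences in Defa21-high cells were modest. The 10 lowest were led by Nucb2, a calcium-binding secretory protein, at 95.5 CPM in WT and 46.7 in the KO, a log2 ratio of -1.03 (-1.13 to -0.93). Lbh, a Wnt-linked transcriptional cofactor, stood at 55.7 and 32.5 (-0.78), Fam46c, a poly(A) polymerase gene, at 52.3 and 32.5 (-0.69) and Habp2, a secreted protease, at 65.1 and 42.2 (-0.62). Reg4, Ggh, Gm10104, Pnliprp2, Itln1 and Defa26 followed, from -0.57 to -0.26. In the Defa21-low cells the log2 ratios of the first 4 were -0.96, -0.93, -0.69 and -0.85. The highest were led by Gm14851 (0.30) and Gm7861 (0.23), with Defa5, Gm15308, Gadd45g, Ccl6, AY761184, Clps and Nupr1 below them.

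Most Paneth products of the Defa21-high cells stood close to their WT level in the KO, while several secretory regulators stood lower. Of 22 tested non-defensin products, Clps of the rule among them, 6 were above 0 and 16 below, with a median of -0.06, and the single call was Reg3b. Lyz1 had a log2 ratio of -0.06, Mmp7 -0.13, Ang4 -0.07 and Itln1 -0.30. Wnt3 was 34.2 CPM in WT and 33.4 in the KO, a log2 ratio of -0.04 (-0.17 to 0.09). Atoh1 was 27.5 and 20.6 with a log2 ratio of -0.42 (-0.58 to -0.26), and 11 of 12 secretory transcription factors were below 0, with a median of -0.17 and no call. Xbp1, the driver of secretory ER expansion, had -0.59 (-0.69 to -0.48), and 20 of 26 ER folding genes were below 0 with a median of -0.33, Hspa5, the ER chaperone BiP, going from 232 to 175 CPM. Of 15 Wnt targets 9 were below 0, with a median of -0.11, no call, and Axin2 at 8.64 and 5.95 CPM. In Defa21-low cells 11 of 12 secretory transcription factors (median -0.16) and 20 of 26 ER folding genes (median -0.25) were below 0 too. All tested genes were below 0 in 62.4% for Defa21-high and 58.1% for Defa21-low cells. The summed secretory factors went from 278 to 228 CPM in Defa21-high cells and from 483 to 353 in the tuft barcodes.

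The genes with the largest ratios between matrices, whether or not Paneth cells express them most, differed likewise in the tuft barcodes. Of the 38 called genes all had the same sign there, and the share of all tested genes with the same sign was not counted. The 3 highest were Fabp6, Reg3b and Apoa1. Fabp6 stood at 129.8 CPM in WT and 507 in the KO, Reg3b, an antibacterial lectin, at 383 and 1397, and Apoa1, an enterocyte apolipoprotein, at 121 and 451. In the tuft barcodes these were 390.1 and 1138, 913 and 6391, and 282 and 1553 CPM, above the Defa21-high levels in every case. The 3 lowest were Gm42418 and AY036118, which overlap ribosomal RNA sequence, and Lars2, at 4053 and 341, 276 and 19.8, and 81.8 and 10.7 CPM. Gm42418 was 14198 and 1134 CPM in the tuft barcodes, with log2 ratios of -3.57 in Defa21-high cells and -3.65 there.

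**Figure D5:**
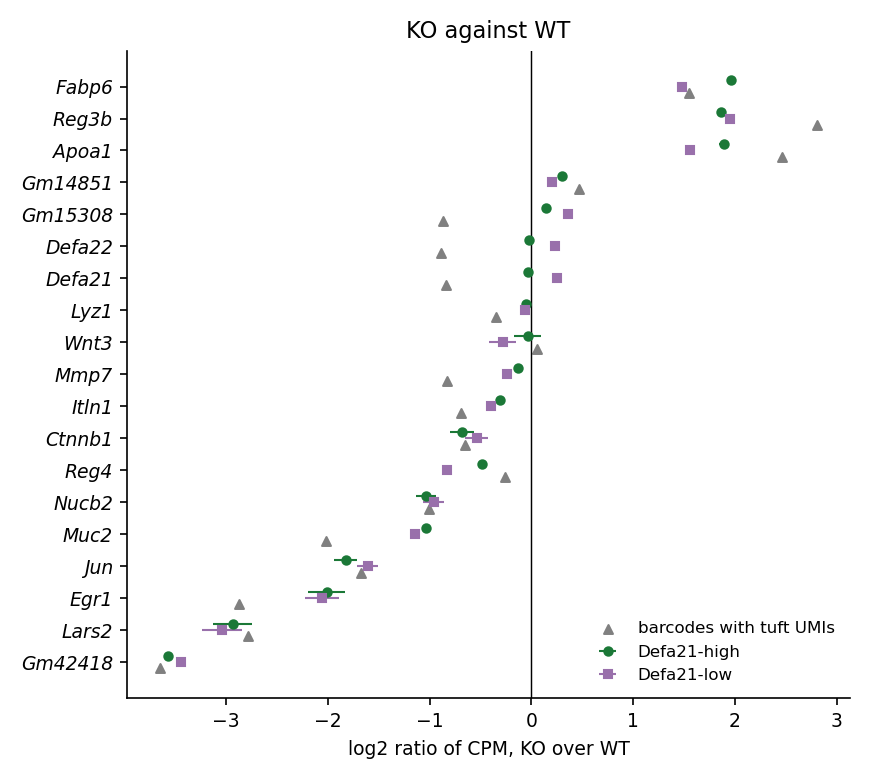
Log2 ratio of CPM, KO over WT, for 19 genes in Defa21-high Paneth cells (circles), Defa21-low Paneth cells (squares) and barcodes with tuft-marker UMIs (triangles); bars on the Paneth sets are counting intervals. The defining defensins, by which the cells were chosen in both matrices, lie near 0 in the Defa21-high cells. Ctnnb1 lies below 0 in all 3 sets, and the genes at either extreme have the same sign in the tuft barcodes.

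Several gene groups leaned one way between the matrices. The shares over all tested genes were 62.4% below 0 and 37.6% above 0 in Defa21-high cells. There 0.269% were called lower, and in Defa21-low cells 58.1% were below 0. Of 16 tested immediate early and stress genes 14 were below 0 in the KO Defa21-high cells, with a median of -0.55 and 4 calls, Jun (120.2 and 34.0 CPM), Egr1 (53.6 and 13.3), Fosb and Fos. The list leaned the same way in Defa21-low cells (14 of 16, median -0.59). Ribosomal protein genes were above 0 in 76 of 86 (median 0.43). Mitochondrial genes went both ways, 5 of 13 above 0 and 8 below, and mt-Atp8, mt-Nd3, mt-Nd4l and mt-Nd5 were called lower. Their sum was 1.76% of UMIs in WT and 1.92% in the KO. All 6 goblet markers were below 0, with a median of -0.81, and Muc2, the gel-forming mucin, went from 1022 to 499 CPM while its tuft-barcode level went from 1109 to 274. Depth, free RNA, the separate libraries and the H11 transgene of the controls differ with the deletion here and cannot be told apart from it.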

How the data were processed

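Single-cell RNA was measured in sorted EpCAM+ crypt cells of 2 groups, WT and KO, for which the labels list 4 samples each. The deposited files hold UMI counts per gene and barcode, which the authors made with Cell Ranger as 1 matrix per group (version 4.0.0 in the file headers, 2.1.1 in the submitters' processing notes, build mm10). No column of per-sample values was left unused. Cells were kept and split by f as the opening states, and no doublets were removed.

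Counts were summed over the cells of each set and scaled to CPM. Intervals were exact Poisson intervals for levels, exact conditional binomial intervals for ratios and Clopper-Pearson intervals for shares, at 95%, and treat cells of a pooled library as 1 sample. A gene was tested with at least 50 UMIs over the sets compared, and was called past 2-fold when the log2 ratio reached 1 after 10 CPM were added. List counts and medians use that scale, and ratios of single genes and families use summed UMIs with nothing added.

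The rule for named genes took, for genes of at least 50 CPM in a set, the 10 highest and 10 lowest outside the defensins by the smaller of both matrices' ratios, all tested defensins with the same sign in both, and for KO against WT the 10 highest and 10 lowest of at least 2 times their level in other kept cells plus the 3 highest and 3 lowest without that limit. The cells, lists and comparisons were chosen with earlier results of these data known. A few results are not reported here. Other Hox genes were added after their values were seen. Of 27998 gene IDs 27645 matched GENCODE M21. Ratios were checked on simulated counts. Python 3.11.15, numpy 2.4.6, scipy 1.17.1, pandas 2.3.3 and matplotlib 3.10.9 were used.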

Additional observations from a re-analysis of the deposited data

How the results depend on the processing

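No paired analysis was possible because each group is 1 pooled matrix with no key from cells to samples, and for the same reason leaving out each replicate could not be run. The Defa21-high share of Paneth cells, KO against WT, had a log2 ratio of -0.27 when at least 10% Defa UMIs made a Paneth cell (-0.08 at 20%) and 0.0039 at 30%, where its sign turned. The count of genes past 2-fold between Defa21-high and Defa21-low cells in both matrices, 5, became 3 at 30% Defa UMIs, 15 between the outer 25% of f, 9 with defensins and Clps left out of the denominator and 8 without the deepest 10% of cells. The KO against WT count, 38, became 129 with that denominator and 84 (26 higher, 58 lower) with cells thinned to 1500 UMIs. Ctnnb1, KO against WT, was -0.82 in the outer 25%, -0.96 thinned and -0.50 as a mean of cells, below 0 in each. The median of the non-defensin products between the sets was, in WT, -0.0134 at 30% Defa UMIs, 0.0434 with the other denominator, -0.15 thinned and -0.0144 as a mean of cells, and, in the KO, 0.0082 in the outer 25%, 0.085 with the other denominator and -0.0045 with the limit set over the whole defensin list. For KO against WT it was -0.10 with the other denominator, -0.10 thinned and -0.13 without the deepest 10%. Gata4 between the sets in the KO turned to 0.83 when thinned, where its UMIs are few. Of the remaining values, 53 for these comparisons moved by less than counting error or 1.5 times the count. For 12 single genes 110 values moved by more and 127 by less, Hoxb8 and Hoxb7 in WT among the former when thinned (0.39 and 0.56). The limits over the whole defensin list and of 5000 UMIs were added after seeing the data. The causes of these changes were not tested.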

Other observations

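The ratio f was also summed over barcodes that were not Paneth cells. Among kept cells outside the Paneth set the 4 genes Defa21, Defa22, Gm15308 and Gm21002 made up 66.3% of the 8-gene UMIs in WT and 52.3% in the KO, and among barcodes with tuft-marker UMIs 66.0% and 43.0%. In the barcodes that were too shallow to be kept, 4720 in WT and 5096 in the KO, the sums were 71.9% and 63.4%.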
